A study of Mus musculus with 4 samples.

Results

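A set of 40 genes of the skeletal muscle sarcomere, of its calcium release and of its energy supply was examined in melanoma cells grown in 3 cultures and in tumors in mice. They were taken by gene symbol from a count table of 24527 symbols, and all 40 were found there. B16F10, a mouse melanoma line, was sequenced from spheroids grown with NIH/3T3 mouse fibroblasts, from a 2D co-culture with the same fibroblasts, from a 2D monoculture and from tumors, with 1 library per condition. The 2D cultures are called the co-culture and the monoculture hereafter. The cultures were made with a B16F10 line carrying a green fluorescent protein, and per the methods the green cells were sorted from them after dead cells were excluded with 7-aminoactinomycin D. The tumors grew under the skin of both flanks of 1-year-old female C57BL/6 mice. The methods describe tumor cells as sorted too, whereas the label of that library describes snap-frozen tumor. All 4 libraries carry the genotype label WT, and the labels name no drug. There are no replicates, so no test was made, and every interval given is a 95% interval that covers counting error only.

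In striated muscle, myosin heavy chains of the thick filament pull on actin of the thin filament, and troponin on the thin filament holds this motion back until calcium binds it. Calcium leaves the sarcoplasmic reticulum through the ryanodine receptor when the voltage sensor in the membrane moves, and a calcium pump returns it. Fast and slow fibres use different genes for many of these parts, and the slow forms of several are also the forms of the heart, so the pairs tell fibre types apart. Bulk RNA counts reads of all cells together, so fewer cells of a type and less RNA per cell cannot be told apart.

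The libraries held between 118896900 and 150028663 reads on genes. Levels are CPM, reads on a gene relative to the library's total and scaled with edgeR's TMM factors, and the upper limit behind a count of 0 (3 reads) was 0.0185 to 0.0262 CPM. The melanoma label was met in every library: Dct, an enzyme of melanin synthesis, had between 2986 and 5127 CPM, Pmel, the melanosome fibril protein, between 2208 and 3478 CPM and Mitf, the regulator of the melanocyte lineage, between 70.3 and 708 CPM. Of 9 fibroblast markers, all had reads in each library, and their summed level was 2728 CPM in the tumor library, 679 CPM in the co-culture, 36.5 CPM in the spheroid and 17.6 in the monoculture. All 3 adipocyte markers had reads in each library, summing to 216 CPM in the tumor library and to between 0.197 and 0.448 CPM in the cultures. The part of these cells in the muscle values was not tested.

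The muscle genes took 1588921 reads, 1.14% of the total, in the tumor library. They took 11078 reads (0.00932%) in the co-culture, 36315 reads (0.0242%) in the spheroid and 13699 reads (0.00946%) in the monoculture. The tumor library was the highest for 37 of the 40 genes. The exceptions were Tnni1, highest in the spheroid, and Myh7 and Tnnc1, highest in the monoculture, all 3 of them slow forms. How many of all genes were highest in the tumor library was not counted, so the 37 only describe the set. All 40 genes had reads in the tumor library, 39 in the co-culture and in the spheroid and 33 in the monoculture.

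**Figure D1:**
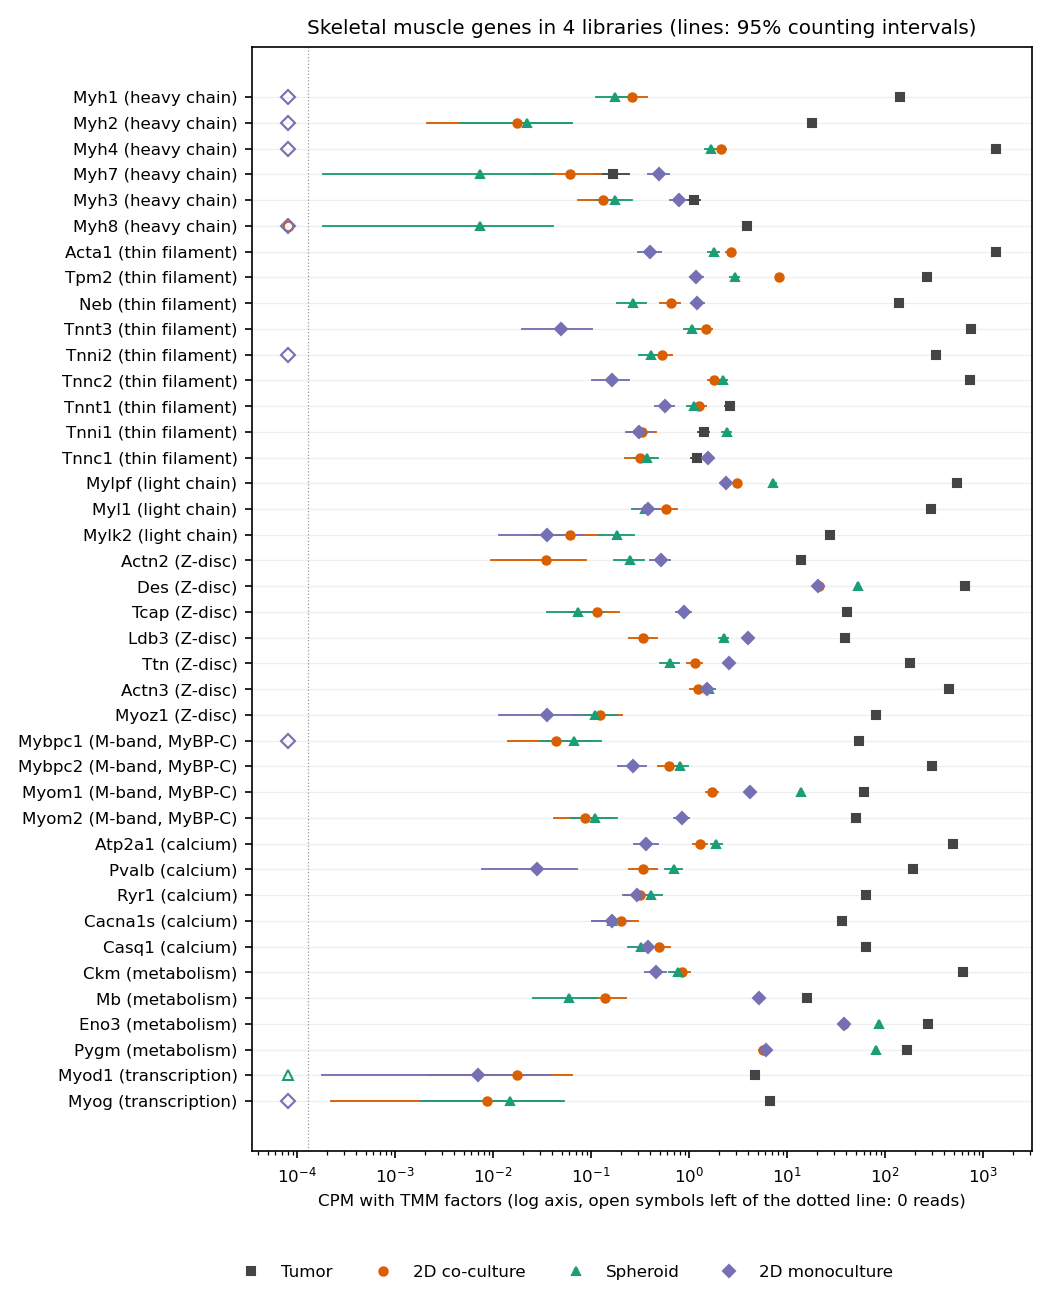
Level of each of the 40 muscle genes (rows, with their role) in the 4 libraries, in CPM with TMM factors on a log axis. Symbols are single libraries, lines are 95% counting intervals and open symbols mark 0 reads. The tumor library lies to the right of all cultures in 37 rows, and open symbols of the monoculture mark 7 genes, among them the fast heavy chains Myh1, Myh2 and Myh4.

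Of the 40 genes, 36 reached a mean of 1 CPM over the libraries with nothing added, and Myh7, Myh3, Myh8 and Tnnc1 did not. For the ratios, 1 CPM was then added to each value. Against the co-culture, 34 of the 36 were more than 2-fold higher in the tumor library, where 20.9% of all 12728 genes were. Against the spheroid it was 34 of 36, with 27.6% of all genes, and against the monoculture 35 of 36, with 14.8% of all genes. None of the 36 was more than 2-fold lower in any of these comparisons, where 18.8%, 26.8% and 18.2% of all genes were. Most of the 36 reach the mean only through the tumor library, such as Mybpc1, at 54.2 CPM there, and Myh4, at 1336 CPM there. The limit also leaves out Myh7 and Tnnc1, which were highest in the monoculture. These counts and the medians below therefore describe the 36 only and are no support for a difference. With 1 CPM added, the slow troponin genes Tnnt1 and Tnni1 stayed within 2-fold against the co-culture and the spheroid, and Tnni1 alone against the monoculture. Without it, Tnni1 in the tumor library was 4.23 times the co-culture, 0.580 times the spheroid and 4.55 times the monoculture. Tnnt1 was then 2.04 times the co-culture and 2.31 times the spheroid. The median log2 ratio of tumor to culture over the 36 genes was 5.60 for the co-culture, 5.65 for the spheroid and 5.66 for the monoculture, beside -0.11, -0.08 and -0.14 over all genes. The 3 comparisons share the tumor library.

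Promoters of 4 of the genes are shown as examples, chosen by their values. Acta1 and Myh4 were high in the tumor library and at traces in the cultures, whereas Pygm and Myom1 kept 49.0% and 22.8% of the tumor level in the spheroid. Eno3, which kept 32.1% there, is not shown. The stretches are the 250 bases before the start of the RefSeq entry, read 5′ to 3′ on the strand of the gene in GRCm38.p6, the assembly also called mm10. They lie at chr8:123894776-123895025 on the minus strand for Acta1 and, on the plus strand, at chr11:67237562-67237811 for Myh4, at chr19:6384158-6384407 for Pygm and at chr17:71019307-71019556 for Myom1. In GENCODE M21 the Myom1 gene begins upstream of this stretch, at chr17:71002633-71126856, so it is an internal start. The starts of Acta1, Myh4 and Pygm also differ between RefSeq and GENCODE. For Pygm the GENCODE gene begins at chr19:6384399, inside the stretch. Distances below are from the RefSeq start. Capitals mark the E-box CAGCTG, the MEF2 site, the CArG box and the TATA box TATAAA, found on either strand.
Acta1: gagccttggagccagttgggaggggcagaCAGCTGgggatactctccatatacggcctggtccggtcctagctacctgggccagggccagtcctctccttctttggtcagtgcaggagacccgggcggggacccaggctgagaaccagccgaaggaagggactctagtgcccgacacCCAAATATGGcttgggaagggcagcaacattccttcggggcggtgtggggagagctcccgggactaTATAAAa
Myh4: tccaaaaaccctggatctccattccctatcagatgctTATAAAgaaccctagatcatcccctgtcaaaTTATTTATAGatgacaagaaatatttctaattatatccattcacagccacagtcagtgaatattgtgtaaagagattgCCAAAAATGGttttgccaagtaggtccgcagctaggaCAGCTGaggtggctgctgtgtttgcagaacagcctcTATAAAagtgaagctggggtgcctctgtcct
Pygm: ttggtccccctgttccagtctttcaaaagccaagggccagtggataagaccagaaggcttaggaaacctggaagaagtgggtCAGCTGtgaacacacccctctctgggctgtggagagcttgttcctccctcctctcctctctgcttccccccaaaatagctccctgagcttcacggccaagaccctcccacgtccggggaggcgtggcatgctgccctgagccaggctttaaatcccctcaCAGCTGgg
Myom1: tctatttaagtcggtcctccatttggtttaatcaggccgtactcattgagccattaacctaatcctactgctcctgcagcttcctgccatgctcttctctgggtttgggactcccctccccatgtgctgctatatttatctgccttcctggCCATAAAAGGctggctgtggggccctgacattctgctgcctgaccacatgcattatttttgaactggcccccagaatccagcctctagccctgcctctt
CAGCTG is an E-box of the kind bound by MYOD1 and myogenin, the CArG box is the element of serum response factor, and TATAAA is the core of the TATA box. In Myh4 the MEF2 site, whose first base lies 182 bases before the start, overlaps a TATAAA on the other strand. Acta1 held a CArG box 73 bases and CAGCTG 221 bases before its start, Myh4 a CArG box at 104 and CAGCTG at 67 bases, Pygm only CAGCTG, at 168 and at 8 bases, and Myom1 only a CArG box, at 99 bases.

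RefSeq promoters of 300 bases, 250 before and 50 after the start, were at hand for 31 of the 40 genes, with 37 entries. CAGCTG stood in 17 of the 37 entries (45.9%), against 16.3% of all 32851 promoters. The CArG box stood in 5 (13.5%) against 1.63% of all, and the MEF2 site also in 5 (13.5%) against 3.19%. TATAAA stood in 8 (21.6%) against 13.6%. The looser E-box CANNTG, which takes in CAGCTG, stood in 83.8% of the entries and in 72.3% of all promoters. These are matches of letters, in windows of which several belong to the same gene, and do not show that a factor binds there.

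Myosin heavy chains are the motors that set the speed of a fibre. Myh4, the heavy chain of the fastest fibres (chr11:67238029-67260446), had 1336 CPM in the tumor library, 2.11 CPM in the co-culture, 1.65 CPM in the spheroid and 0 reads in the monoculture. Myh1, the intermediate fast form, had 143, 0.262, 0.176 and 0 CPM in the same order. Myh2, the fast oxidative form, had 17.8, 0.0175, 0.0220 and 0 CPM, from 2885, 2, 3 and 0 reads. The tumor library thus stood apart from every culture for all 3 genes, and the monoculture was the only library with no read of any of them. For Myh4 the co-culture held 0.158% (0.139 to 0.180) of the tumor level, which was 632 times as high, and at least 63428 times the monoculture when 3 reads stand for the 0 there.

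The 3 fast heavy chain genes lie next to each other on chromosome 11 and are alike in sequence, which is shown here for the first 90 coding bases, with bases that differ from Myh4 in capitals.
Myh4: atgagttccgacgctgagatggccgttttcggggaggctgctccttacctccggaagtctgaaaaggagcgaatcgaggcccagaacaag
Myh1: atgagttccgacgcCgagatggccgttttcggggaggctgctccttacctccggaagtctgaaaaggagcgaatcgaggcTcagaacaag
Myh2: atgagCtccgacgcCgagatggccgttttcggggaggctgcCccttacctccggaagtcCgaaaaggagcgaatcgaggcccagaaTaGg
Myh1 differed from Myh4 at 2 of these bases and Myh2 at 6. Over the whole coding sequences, 11.0% of the 50-base windows of Myh4 also stood unchanged in Myh1, but 0.265% of its 150-base windows. Reads that match more than 1 of these genes may have been split or dropped in the counting, whose setting for them is not given in the sources used here.

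Among reads of the 3 fast chains, Myh4 took 89.3% in the tumor library, 88.3% (83.9 to 91.9) in the co-culture and 89.3% (84.8 to 92.8) in the spheroid. Myh1 took 9.55%, 10.9% (7.51 to 15.3) and 9.52% (6.20 to 13.8), and Myh2 1.19%, 0.730% (0.0885 to 2.61) and 1.19% (0.246 to 3.44). The mixture in the co-culture, from 274 reads, and in the spheroid, from 252 reads, thus differed from that of the tumor library by less than counting error. Per kb of merged exons the tumor shares were 89.9% Myh4, 9.11% Myh1 and 1.01% Myh2. The monoculture had no reads from which to give a share.

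The slow heavy chain Myh7, which is also the adult ventricular form of large mammals, was highest in the monoculture. It had 27 reads in the tumor library, 7 in the co-culture, 1 in the spheroid and 70 in the monoculture, or 0.166, 0.0611, 0.00734 and 0.491 CPM. The monoculture exceeded the tumor library 2.95-fold (1.87 to 4.79). Mhrt, an antisense RNA that shares 5.62% of the exon bases of Myh7, had 0 reads in every library. Of the developmental chains, Myh3, the embryonic form, had 1.12, 0.131, 0.176 and 0.779 CPM, so the monoculture lay close to the tumor library, at 69.5% of its level (54.4 to 88.5). Myh8, the perinatal form, had 3.84 CPM in the tumor library and 0, 1 and 0 reads in the cultures.

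The 9 thin filament genes summed to 3587 CPM in the tumor library, the largest sum of any role, but ranged from 1.19 to 1360 CPM. Acta1, the actin of skeletal muscle (chr8:123891769-123894751), had 1360 CPM in the tumor library, 2.65 CPM in the co-culture, 1.77 CPM in the spheroid and 0.40 in the monoculture. It shares no 50-base coding window with the cardiac actin Actc1 or the smooth muscle actin Acta2. Neb, nebulin, which runs along the thin filament, had 139, 0.646, 0.264 and 1.21 CPM. Tpm2, beta-tropomyosin, which muscle and other contractile cells share, had 267, 8.29, 2.91 and 1.18 CPM. The co-culture held 3.11% of its tumor level (2.91 to 3.31), 7.03 times as much as the monoculture (5.96 to 8.33). For Acta1 the cultures held at most 0.195% of the tumor level.

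Troponin has 3 subunits: T binds tropomyosin, I holds back the motion and C binds calcium. The fast forms Tnnt3, Tnni2 and Tnnc2 had 755, 329 and 733 CPM in the tumor library. In the co-culture they had 1.48, 0.524 and 1.78 CPM, and in the spheroid 1.06, 0.404 and 2.19 CPM. In the monoculture they had 7, 0 and 23 reads, or 0.0491, 0 and 0.161 CPM. Every culture was thus far below the tumor library for the fast subunits, with the monoculture lowest. Of the exon bases of Tnnc2, 74.0% also lie in exons of Ube2c on the other strand, a gene of the cell cycle at 97.4 CPM in the tumor library and between 90.9 and 156 CPM in the cultures. Reads in that stretch cannot be assigned without strand, and whether the counting used strand is not given in the sources used here. In all, 11 of the 40 genes had at least 5% of their exon bases in exons of another gene, each on the other strand.

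The slow troponin forms were low in every library. Tnnt1 had 2.58 CPM in the tumor library, 1.27 CPM in the co-culture, 1.12 CPM in the spheroid and 0.569 in the monoculture. Tnni1 had 1.40, 0.332, 2.42 and 0.309 CPM, with the spheroid 7.30 times the co-culture (5.21 to 10.5). Tnnc1, which is also the troponin C of the heart, had 1.19, 0.314, 0.367 and 1.54 CPM. The spheroid held 173% (145 to 205) of the tumor level of Tnni1 and the monoculture 129% (106 to 158) of that of Tnnc1, and no other thin filament gene was higher in a culture than in the tumor library.

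The regulatory and essential light chains of fast myosin support the lever of the motor. Mylpf, the fast regulatory light chain, had 534 CPM in the tumor library, 3.04 CPM in the co-culture, 7.20 CPM in the spheroid and 2.38 in the monoculture. Myl1, the fast essential light chain, had 290, 0.585, 0.352 and 0.379 CPM. Mylk2, the kinase that phosphorylates the regulatory light chain in skeletal muscle, had 27.6, 0.0611, 0.184 and 0.0351 CPM. Mylpf kept 1.35% of the tumor level in the spheroid (1.26 to 1.44), and Myl1 0.121% (0.0895 to 0.161).

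At the Z-disc, alpha-actinins anchor the thin filaments and titin spans from there to the middle of the sarcomere. Actn3, the alpha-actinin of fast fibres, had 449 CPM in the tumor library but 1.22, 1.61 and 1.52 CPM in the co-culture, the spheroid and the monoculture. Actn2, the form of all striated muscle, had 13.7 CPM and then 0.0349, 0.250 and 0.512 CPM. Ttn, titin, had 180, 1.14, 0.632 and 2.58 CPM. The monoculture was the highest culture for Actn2 and Ttn, and the 3 cultures lay near each other for Actn3.

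Tcap, telethonin, which caps titin, had 41.2 CPM in the tumor library, 0.114 CPM in the co-culture, 0.0734 CPM in the spheroid and 0.884 in the monoculture. Ldb3, a PDZ and LIM domain protein of the Z-disc, had 38.6, 0.341, 2.24 and 4.01 CPM. Myoz1, the calsarcin of fast fibres, had 80.8, 0.122, 0.110 and 0.0351 CPM. Tcap and Ldb3 thus had their highest culture level in the monoculture and Myoz1 its lowest. Des, desmin, the intermediate filament that links Z-discs and also a protein of smooth muscle, had 656 CPM in the tumor library but 20.9, 52.6 and 20.8 CPM in the cultures, the highest culture levels of the Z-disc genes.

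In the M-band at the middle of the thick filament, Myom1, the myomesin of all striated muscle, had 60.2 CPM in the tumor library, 1.72 CPM in the co-culture, 13.7 CPM in the spheroid and 4.14 in the monoculture. Myom2, the M-protein of fast fibres and heart, had 50.5, 0.0873, 0.110 and 0.835 CPM. The 2 genes differed most in the spheroid, which kept 22.8% (21.7 to 24.0) of the tumor level of Myom1 and 0.218% (0.122 to 0.360) of that of Myom2. Of the exon bases of Myom1, 1.98% lie in exons of Myl12a on the other strand, a light chain of non-muscle myosin with between 408 and 680 CPM. Myosin binding protein C brakes the motor, and its fast form Mybpc2 had 300 CPM in the tumor library but 0.620, 0.808 and 0.267 CPM in the cultures. The form named slow, Mybpc1, which fast fibres also make, had 54.2 CPM in the tumor library and 5, 9 and 0 reads in the cultures.

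The calcium genes had between 36.3 and 492 CPM in the tumor library and summed to 846 CPM. Atp2a1, the calcium pump SERCA1 of fast fibres (chr7:126445858-126463108), had 492 CPM there, 1.28 CPM in the co-culture, 1.89 CPM in the spheroid and 0.365 in the monoculture. Pvalb, parvalbumin, which buffers calcium in fast fibres of rodents, had 190, 0.341, 0.698 and 0.0281 CPM. For both, the monoculture was the lowest library, with 52 and 4 reads. Of the exon bases of Atp2a1, 21.9% lie in exons of Rabep2 on the other strand, which had 15.3 CPM in the tumor library and between 38.5 and 43.9 CPM in the cultures.

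Ryr1, the ryanodine receptor through which calcium leaves the reticulum, had 64.2 CPM in the tumor library but 0.314, 0.404 and 0.295 CPM in the co-culture, the spheroid and the monoculture. Cacna1s, the voltage sensor that opens it, had 36.3 CPM and then 0.201, 0.162 and 0.161 CPM. Casq1, the calcium store protein of fast fibres, had 63.8 CPM and then 0.489, 0.323 and 0.379 CPM. In contrast to Atp2a1 and Pvalb, each of these 3 genes of calcium release and storage differed by less than 2-fold between the cultures, which held between 0.445% and 0.766% of their tumor levels.

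Among the metabolic genes, Ckm, muscle creatine kinase, which refills ATP, had 615 CPM in the tumor library but 0.838, 0.764 and 0.456 CPM in the cultures. Eno3, the enolase of muscle glycolysis, had 271 CPM in the tumor library, 37.6 CPM in the co-culture, 87.0 CPM in the spheroid and 38.2 in the monoculture. Pygm, the glycogen phosphorylase of muscle, had 165, 5.60, 80.8 and 6.02 CPM. The spheroid was the highest culture for Eno3 and Pygm, and for Pygm it exceeded the co-culture 14.4-fold (13.3 to 15.6) and reached 49.0% of the tumor level (48.0 to 50.1). Mb, myoglobin, the oxygen store of oxidative fibres and heart, had 15.9 CPM in the tumor library, 0.140 CPM in the co-culture, 0.0587 CPM in the spheroid and 5.14 in the monoculture. Mb and Pygm thus had opposite orders in the spheroid and the monoculture.

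Myod1 and Myog, the transcription factors that commit precursors to muscle and start their differentiation, had few or no reads in the cultures. Myod1 had 761 reads in the tumor library (4.69 CPM) and 2, 0 and 1 in the cultures, and Myog had 1082 reads (6.66 CPM) and 1, 2 and 0 in the cultures. Of 8 precursor markers, all had reads in the tumor library. Pax7, the marker of satellite cells, had 10 reads there and Myf5 28, and both had 0 reads in every culture. The highest of the list in the tumor library were Pax3, which melanocytes also express, at 111 CPM there and between 167 and 244 CPM in the cultures, and Myf6, the factor of mature fibres, at 33.6 CPM there and at most 7 reads in a culture.

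Levels of different genes can be compared only per length. Per kb of merged exons in the tumor library, Tnnc2 was first at 916 CPM per kb, with the overlap given above, followed by Acta1 at 885, Mylpf at 503 and Tnnt3 at 477. Myh4 came next at 222 CPM per kb, then Tnni2 at 219.5 and Ckm at 211. Last were Myh7 at 0.0193, Myh3 at 0.185 and Myh8 at 0.327 CPM per kb. These 7 genes are 5 fast forms, the actin Acta1 and the metabolic gene Ckm, and the slow and developmental heavy chains stood last.

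The slow share of a pair, per kb, is the slow gene's level as a percentage of the pair's sum. In the tumor library, Myh7 made up 0.00781% of the adult heavy chains, Tnnt1 0.245% of troponin T, Tnni1 0.177% of troponin I and Tnnc1 0.125% of troponin C. Mybpc1 made up 12.6% of its pair. Slow forms thus stayed under 1% of the heavy chain and troponin pairs. Of the slow counterparts outside the 40 genes, Myl2 made up 0.0452% of the regulatory light chain pair, Myl3 0.114% of the essential light chain pair and Casq2 4.85% of calsequestrin in the tumor library. Atp2a2 made up 23.4% of the SERCA pair there, at 263 CPM, and Tpm3 had 307 CPM, and both are genes of many cell types.

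Over all 40 genes, the 13 fast forms summed to 5648 CPM in the tumor library, 13.4 CPM in the co-culture, 18.2 CPM in the spheroid and 5.18 in the monoculture, and none of the 13 had its highest culture level in the monoculture. For Actn3 the spheroid exceeded the monoculture by less than counting error, 1.06-fold (0.875 to 1.29). The 13 leave out Myom2, of fast fibres and heart, whose highest culture level was in the monoculture. They also leave out Casq1, of fast fibres, whose highest culture level was in the co-culture. The share of all genes with this order was not counted.

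In the cultures the slow shares were larger. Tnnt1 made up 38.0% of troponin T in the co-culture, 43.1% in the spheroid and 89.3% in the monoculture. Tnni1 made up 20.8%, 71.4% and 100% of troponin I, and Tnnc1 11.9%, 11.4% and 88.0% of troponin C. The shares depend on the length used: by coding length, Tnni1 made up 0.432% in the tumor library and 39.2% in the co-culture, both over 1.5 times the values by merged exons. In reads, the monoculture had 81 of Tnnt1 to 7 of Tnnt3, 44 of Tnni1 to 0 of Tnni2, 220 of Tnnc1 to 23 of Tnnc2 and 70 of Myh7 to 0 of the fast chains. The slow share of the heavy chains was 1.76% in the co-culture, 0.278% in the spheroid and 100% in the monoculture. The first 2 values rest on 7 and 1 reads of Myh7. As a share of reads, the interval of the spheroid, 0.0100% to 2.18%, overlaps that of the tumor library, 0.00732% to 0.0162%. By value, all 4 pairs had their lowest slow share in the tumor library and their highest in the monoculture. Binding protein C did the reverse, with a slow share of 5.32%, 6.13% and 0%, although the 38 reads of the monoculture allow up to 9.25% of the reads.

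**Figure D2:**
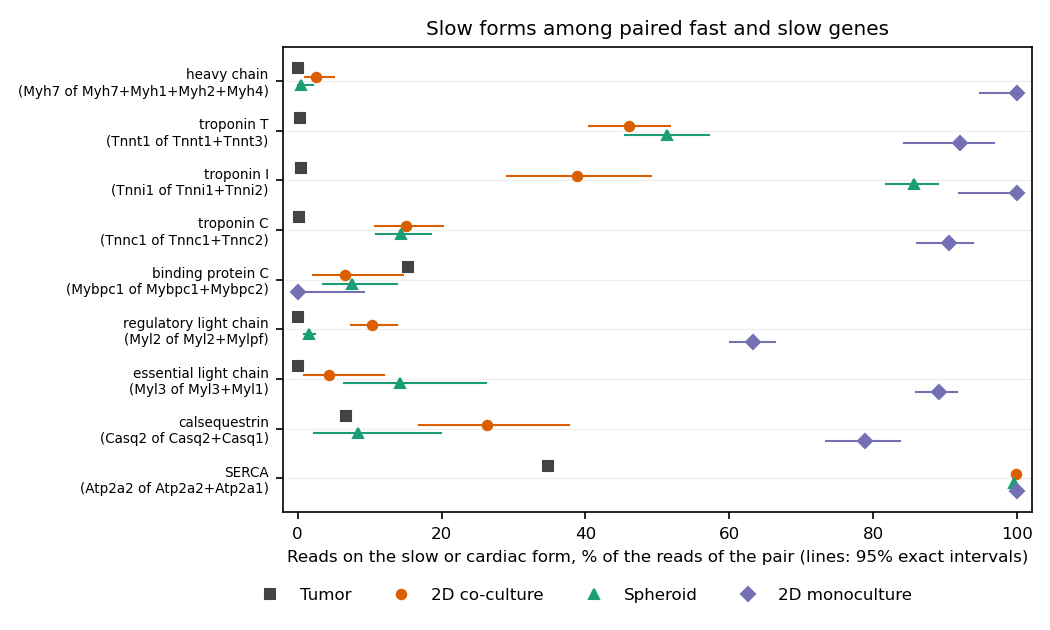
Reads on the slow or cardiac gene as a percentage of the reads of each fast and slow pair (rows), in the 4 libraries, with 95% exact intervals; these are shares of reads without division by length. For heavy chain and troponins the tumor library stands near 0 and the monoculture at 90.5% or more, and for SERCA, whose gene Atp2a2 most cells express, every culture stands at 99.6% or more.

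To describe the traces, each culture level was set against the tumor level for the 33 genes with at least 1000 reads in the tumor library. Myog, with 1082 reads, was the last inside this limit and Myod1, with 761, the first outside, followed by Myh8, Tnnt1, Tnni1, Tnnc1, Myh3 and Myh7. The limit is set on the tumor library, where most of the genes are high, and it leaves out genes with large culture levels, such as Myh7 at 295% of the tumor level in the monoculture, Tnni1 at 173% in the spheroid and Tnnt1 at 49.1% in the co-culture. The counts and medians that follow therefore describe these 33 genes only and are no support for a difference. In the co-culture 28 of the 33 were under 1% of the tumor level, where 4.5% of all 10716 genes were. In the spheroid it was 25, with 5.66% of all genes, and in the monoculture 23, with 5.61% of all genes. The median was 0.255% of the tumor level in the co-culture, 0.352% in the spheroid and 0.338% in the monoculture, beside medians of all genes of 109%, 102% and 111%.

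**Figure D3:**
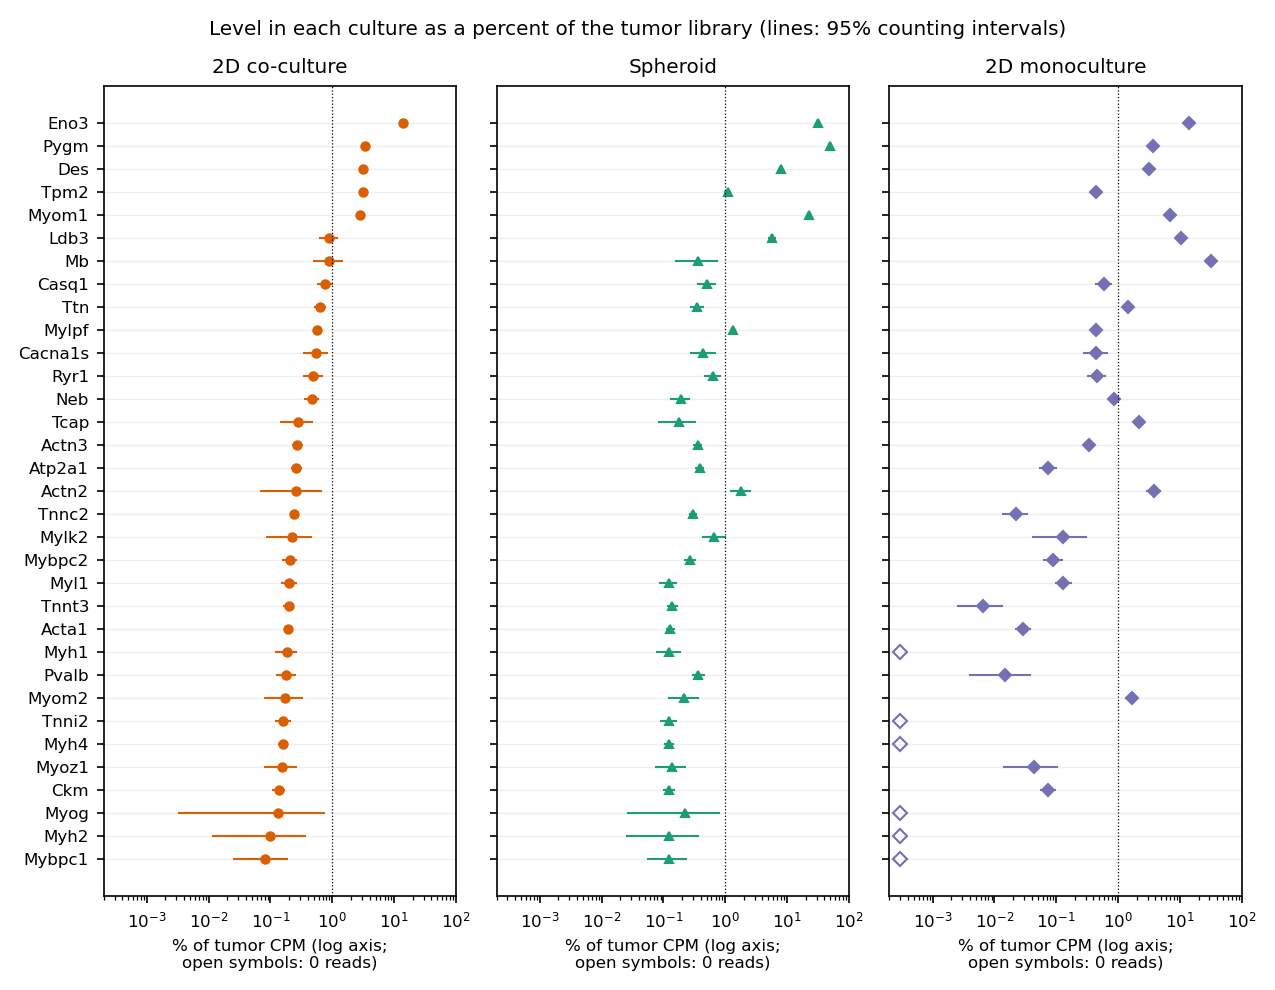
Level in each culture as a percentage of the tumor level for the 33 genes with at least 1000 tumor reads, on a log axis, ordered by the co-culture. Lines are 95% counting intervals, open symbols mark 0 reads and the dotted line marks 1%. In the co-culture 28 genes and in the spheroid 25 stand left of the dotted line, and the monoculture spreads from 0 reads of 6 genes to 32.3% for Mb.

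The similar medians covered different genes. Of the 33, 11 had less than 0.05% of their tumor level in the monoculture, a limit chosen after seeing the values: Myh1, Myh2, Myh4, Acta1, Tnnt3, Tnni2, Tnnc2, Myoz1, Mybpc1, Pvalb and Myog. In the co-culture these 11 lay between 0.0806% and 0.243% of the tumor level, and their 1070 reads came to 0.187% (0.176 to 0.198). In the spheroid they lay between 0.122% and 0.367%, and their 1111 reads came to 0.163% (0.154 to 0.173). In the monoculture their 96 reads came to 0.0135%, a level that the choice of the genes sets. Apart from Acta1, Mybpc1 and Myog, the 11 are fast forms.

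The 5 genes at or over 1% of the tumor level in the co-culture were Tpm2, Des, Myom1, Eno3 and Pygm, and all 5 were so in the spheroid too, with Mylpf, Actn2 and Ldb3. They took 14.5% of the muscle gene reads in the tumor library but 76.6% in the co-culture, 88.9% in the spheroid and 73.2% in the monoculture. The summed levels in the cultures are therefore mostly those of 5 genes. Across the 40 genes, Spearman's correlation with the tumor level was 0.742 for the co-culture, 0.593 for the spheroid and 0.0358 for the monoculture, and 0.906 between the co-culture and the spheroid. Genes are not replicates, and gene length is shared by all libraries, so these values only describe the orders.

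Against the monoculture, 35 genes had at least 10 reads in the pair of libraries, and nothing was added to the values. In the co-culture 12 were more than 2-fold higher, where 10.1% of all genes were, and 10 more than 2-fold lower, where 14.7% were. With 1 CPM added, as in the tumor comparisons, 5 were higher and 2 lower. The share of all genes was not counted for this setting, so it cannot be set beside these counts. The 12 were Myh1, Myh4, Acta1, Tpm2, Tnnt3, Tnni2, Tnnc2, Tnnt1, Myoz1, Mybpc2, Atp2a1 and Pvalb, of which Tnnt1 is the only slow form. The 10 were Myh7, Myh3, Tnnc1, Actn2, Tcap, Ldb3, Ttn, Myom1, Myom2 and Mb. None of these is a fast form in the lists used here, which count Myom2, of fast fibres and heart, as common. In size, Tnnt3 was 30.2-fold higher (14.4 to 76.3) and Mb 36.8-fold lower (22.5 to 64.7).

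In the spheroid 18 of 35 were more than 2-fold higher than in the monoculture, where 17.3% of all genes were, and 9 lower, where 22.9% were. With 1 CPM added, 9 were higher and 2 lower, again without a share of all genes. The higher genes were those of the co-culture without Tnnt1, at 1.96-fold, and with Tnni1, Mylpf, Mylk2, Des, Myom1, Eno3 and Pygm. The 9 lower genes were Myh7, Myh3, Neb, Tnnc1, Actn2, Tcap, Ttn, Myom2 and Mb. Pygm was 13.4-fold higher (12.5 to 14.4), Tnni1 7.85-fold (5.72 to 11.0) and Mylpf 3.02-fold (2.67 to 3.43). Mb was 87.5-fold lower (44.2 to 203) and Neb 4.59-fold (3.19 to 6.77). Both comparisons share the monoculture.

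Between spheroid and co-culture, 10 of 35 were more than 2-fold higher in the spheroid, where 14.9% of all genes were, and 3 lower, where 15.2% were. The 10 were Tnni1, Mylpf, Mylk2, Actn2, Des, Ldb3, Myom1, Pvalb, Eno3 and Pygm, and the 3 were Tpm2, Neb and Mb. Myom1 was 7.98-fold higher (6.89 to 9.29) and Ldb3 6.57-fold (4.70 to 9.43), whereas Tpm2 was 2.85-fold lower (2.53 to 3.21). The fast genes Myh4, Myh1, Tnnt3, Tnni2, Tnnc2 and Atp2a1 stayed within 2-fold. For Mb the interval of the ratio, 0.156 to 1.04, took in no change.

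The reads of the monoculture were followed in genes of slow fibres and heart. All slow counterparts are given by rule, whereas the cardiac genes other than Myl4, Tnnt2 and Ryr2 are named after their values were seen. Myl2, the regulatory light chain of slow fibres and ventricle, had 583 reads in the monoculture (4.09 CPM) against 72 in the tumor library, 40 in the co-culture and 15 in the spheroid. Myl3, the essential light chain, had 440 reads against 53, 3 and 8. Pln, phospholamban, the brake of the SERCA2 pump, had 495 reads against 20, 4 and 8. The monoculture was the highest library for all 3, by 9.23-fold (7.21 to 12.0), 9.46-fold (7.10 to 12.8) and 28.2-fold (18.1 to 46.6) over the tumor library. Myh7b, a slow tonic chain, had 43 reads against 10, 20 and 22.

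Casq2, the cardiac calsequestrin, had 202 reads in the monoculture against 741, 20 and 4, and Myoz2, the slow calsarcin, 67 against 395, 7 and 2, so the tumor library was higher for these. Tpm3 and Atp2a2, which most cells express, had between 307 and 711 CPM and between 263 and 1054 CPM over the 4 libraries, and both were lowest in the tumor library.

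Of 8 cardiac markers, 6 were highest in the monoculture, Tnnt2 among them by less than counting error, and the list summed to 22.2 CPM there, 18.0 CPM in the tumor library, 3.53 CPM in the co-culture and 1.88 CPM in the spheroid. Myh6, the atrial heavy chain and the main one of the adult mouse ventricle, had 1143 reads in the monoculture against 10 in the tumor library, 9 in the co-culture and 8 in the spheroid. Tnni3, cardiac troponin I, had 243 reads against 32, 1 and 41, and Nppa, the atrial natriuretic peptide, 249 against 46, 37 and 38. Ryr2, the ryanodine receptor of heart, had 51 reads against 1, 0 and 0, and Myl7, the atrial light chain, 44 against 4, 1 and 8. Actc1, cardiac actin, was higher in the tumor library, with 832 reads (5.12 CPM) against 471 in the monoculture (3.31 CPM), 4 in the co-culture and 10 in the spheroid. In the tumor library Myl4 and Tnnt2, which embryonic skeletal muscle also expresses, led the list at 6.36 and 5.93 CPM. Of 50-base coding windows of Myh6, 23.8% stood unchanged in Myh7, so some of their reads may be shared. Among the 40 genes, 10 had their highest level among the cultures in the monoculture: Myh7, Myh3, Tnnc1, Neb, Actn2, Tcap, Ldb3, Ttn, Myom2 and Mb. Of these, only Myh7 and Tnnc1 were higher there than in the tumor library. The share of all genes with this order was not counted. The part of cardiac cells or RNA in the monoculture values was not tested.

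**Figure D4:**
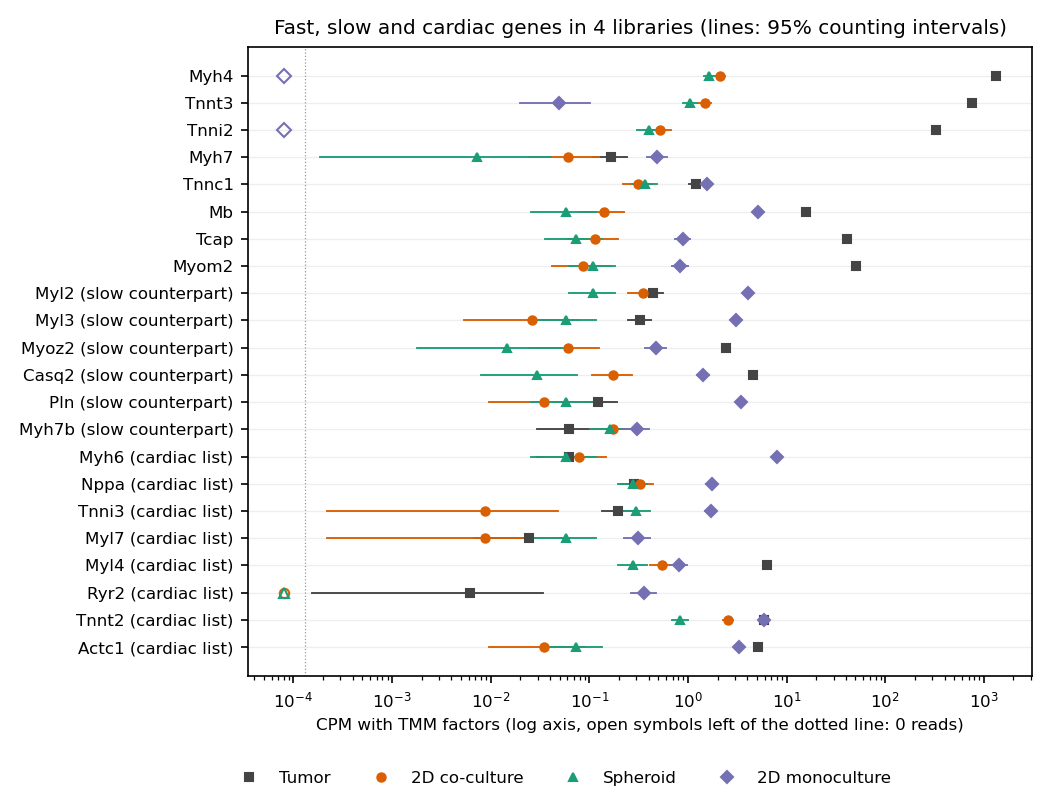
Fast, slow and cardiac genes (rows) in the 4 libraries, in CPM with TMM factors on a log axis, with 95% counting intervals and open symbols for 0 reads. The 3 fast genes at the top are examples from the 13 fast forms. They are lowest in the monoculture, which holds 0 reads of Myh4 and Tnni2. Of the fast forms not shown, Actn3 was lowest in the co-culture and Myl1 in the spheroid. For Myh6, Myl2, Myl3 and Pln the monoculture lies to the right of the other 3 libraries.

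A longer list of 51 other skeletal muscle genes, chosen like the 40 with earlier results known, was set beside them. Of the 47 with a mean of 1 CPM, 45 were more than 2-fold higher in the tumor library than in the co-culture, 43 than in the spheroid and 41 than in the monoculture, beside 20.9%, 27.6% and 14.8% of all genes. Of 46 with at least 1000 tumor reads, 23, 25 and 20 were under 1% of the tumor level, beside 4.5%, 5.66% and 5.61% of all genes. Both limits act as for the 40 genes, so these counts are no support for a difference. The 5 highest in the tumor library were Tpm1, alpha-tropomyosin of many cells, at 998 CPM, Ankrd23, an ankyrin repeat protein that binds titin, at 310 CPM, Fhl1, a LIM domain protein, at 307 CPM, Xirp2, an actin binding protein of the intercalated disc and the myotendinous junction, at 289 CPM and Trim63, the ubiquitin ligase MURF1, at 137 CPM. In the cultures Tpm1 had between 478 and 647 CPM and Trim63 between 36.8 and 66.2 CPM, whereas Xirp2 had between 0.308 and 0.498 CPM and Fhl1 between 0.0702 and 0.533 CPM. Ankrd23 had between 10.8 and 44.3 CPM.

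Of 7 genes of the neuromuscular junction, all had reads in the tumor library, where they summed to 14.2 CPM. Chrna1 and Chrnb1, receptor subunits for acetylcholine, were the highest of them there, at 6.20 and 3.86 CPM. In the cultures Chrna1 had between 0.0491 and 0.162 CPM, whereas Chrnb1 had 2.21 CPM in the co-culture, 6.29 CPM in the spheroid and 7.85 in the monoculture. Chrnd and Musk had 0 reads in the co-culture. Smooth muscle markers, which share Des with the 40 genes, summed to 905 CPM in the tumor library, 126 CPM in the co-culture, 115 CPM in the spheroid and 55.8 in the monoculture, with reads of all 7 in each. After Des, Acta2, the smooth muscle actin, was the highest of them in the tumor library, at 100.5 CPM, with 43.6 CPM in the co-culture, 0.250 CPM in the spheroid and 0.175 in the monoculture. The part of smooth muscle in the levels of Des and Tpm2 was not tested.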

How the data were processed

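RNA was sequenced from 4 libraries, 1 per condition, as poly(A)-enriched paired reads. The authors deposited counts of reads per gene symbol, whole numbers without normalization; Trimmomatic, STAR, featureCounts and the build mm10 are named in the submitters' processing notes without versions, and the sources used here do not give the strand and multimapping settings. The totals lay between 118896900 and 150028663 reads, and the label gave the condition of each column, with 0 columns unused.

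The counts were scaled to CPM with the TMM method of edgeR 4.0.16 (R 4.3.3). Other steps used Python 3.11.15, numpy 2.4.6, pandas 2.3.3, scipy 1.17.1 and matplotlib 3.10.9. Intervals are exact Clopper-Pearson intervals of read shares, and those of ratios rest on the exact binomial share that 1 library takes of the reads of both. They cover counting error only. No test was made, and the study's NOISeq and GFold were not run. Ratios of tumor to culture had 1 CPM added and a minimum mean of 1 CPM, percentages of the tumor level a minimum of 1000 tumor reads, and ratios between cultures a minimum of 10 reads in the pair with nothing added. Lengths and overlaps came from GENCODE M21 and promoters from RefSeq tables, both of GRCm38. The calls with 1 CPM added and the intervals of ratios were tested on simulated counts that hold counting error only. This covers neither the calls with nothing added nor any spread between samples. As alternatives, other minimums were tried, and scaling by upper quartiles, by total counts and by DESeq2 1.42.0.

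All 40 genes are named, with the 5 highest of the other skeletal muscle genes in the tumor library and any under 10 reads there, of which there were 0, the slow counterparts, the 2 highest of the cardiac, smooth muscle, precursor and junction lists with defining markers at 0, and Mitf, Dct and Pmel. The genes and lists were chosen with earlier results of these data known.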

Additional observations from a re-analysis of the deposited data

How the results depend on the processing

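With 1 library a condition, no spread between samples is known, and a value at a few reads is limited by counting error. No paired analysis was possible because there is 1 library a condition. Of 492 comparisons of a value with an alternative, 333 were ratios of single genes under other scalings. These scalings shift all genes of a library alike and by less than 1.5-fold, so none of the 333 could move. Of the rest, 35 moved by over 1.5-fold, or left the 95% counting interval of a share, and 124 did not. Against TMM factors, total counts shifted the log2 ratio of culture to tumor of every gene by -0.27 in the co-culture, -0.36 in the spheroid and -0.24 in the monoculture, upper quartile factors by -0.13, -0.13 and -0.25, and under these scalings every count and median of the muscle genes changed by less than 1.5-fold.

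With 0.1 CPM added in place of 1, the median log2 ratio of tumor to culture became 7.42 for the co-culture, 7.57 for the spheroid and 7.41 for the monoculture. The median percentage of the tumor level became 0.0945 in the co-culture and 0.123 in the spheroid once the monoculture level was subtracted. Over the 11 genes under 0.05% in the monoculture, chosen after seeing the data, it was 0.159, 0.130 and 0 in the co-culture, the spheroid and the monoculture, which the choice itself sets for the last. Without Tpm2, Des, Myom1, Eno3 and Pygm, also left out after seeing the data, it was 0.108 in the monoculture. With 1 CPM added to ratios to the monoculture, 5 genes were higher and 2 lower in the co-culture and 9 higher and 2 lower in the spheroid, since most levels lie under 1 CPM. The share of all genes was not counted there.

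Divided by coding length, and then as reads undivided, the slow share of troponin T was 0.354% and 0.341% in the tumor library, 46.96% and 46.03% in the co-culture and 52.3% and 51.4% in the spheroid. For troponin I it was 0.432% and 0.426%, 39.2% and 38.8%, and 85.9% and 85.7% in the same libraries. In the tumor library it was 0.162% and 0.163% for troponin C and 15.4% and 15.3% for binding protein C, and the fast heavy chain shares were 89.27% and 89.26% for Myh4, 9.54% and 9.55% for Myh1 and 1.186% and 1.188% for Myh2. The merged exons of Tnnt1 and Tnni1 are longer beside those of Tnnt3 and Tnni2 than their coding sequences are, which lowers the share per kb of merged exons.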
